A study of Mus musculus with 18 samples.

Results

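The miR-143/miR-145 cluster consists of 2 neighbouring microRNA hairpins, miR-143 and miR-145a, each of which can release a mature strand from either of its arms. The 4 members described here are the rows of the deposited table with the names mmu-miR-143-3p, mmu-miR-143-5p, mmu-miR-145a-5p and mmu-miR-145a-3p, out of 1251 mature microRNAs listed. All 4 were above the table's lowest value in at least 1 library, and 3 of them passed the filter on low values and were among the 293 microRNAs tested. The fourth, miR-143-5p, was above the lowest value in 1 library of 18 and is described by its values only.

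Small RNA was sequenced from skin of 6 female SKH-1E Hairless mice, an outbred strain that is hairless through a spontaneous mutation of the Hr gene and carries no engineered allele named in the labels. All 6 mice had received repeated low-dose ultraviolet B from solar simulators from young adulthood on, so that every sample, including the reference tissue, is irradiated skin. From each mouse came nonlesional chronically irradiated skin (CHR), a papilloma (PAP, the benign precursor) and a cutaneous squamous cell carcinoma (cuSCC), which gives 6 samples of each type, matched by mouse; the mice are numbered 2, 3, 7, 8, 9 and 10. Whole pieces of tissue were homogenised, so a sample can hold epidermal or tumour cells together with dermis, vessels, muscle and blood, and a lower level of a microRNA in such bulk RNA cannot be told apart between fewer cells of a type and less of it per cell. The comparisons ask how the cluster differs between irradiated skin, the precursor and the carcinoma.

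In mammals the hairpins of miR-143 and miR-145 are cut from a common primary transcript, which smooth muscle cells make in abundance under the control of serum response factor and its cofactor myocardin. Both microRNAs are widely used as marks of the contractile smooth muscle state, and in skin their known sources are the walls of vessels, the muscles that raise hairs, pericytes and, at a lower level, fibroblasts. One strand of each hairpin is usually kept and loaded into the silencing complex (miR-143-3p and miR-145a-5p, here called the leading arms), while the opposite strand (miR-143-5p and miR-145a-3p) is mostly degraded.

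In the mouse genome (build GRCm38, the build mm10 named in the labels) both hairpins lie on the minus strand of chromosome 18. GENCODE M21 places Mir143 at 61649196 to 61649258 and Mir145a at 61647825 to 61647894, with 1301 bases between them. In RefSeq both lie within Carmn, a long noncoding RNA gene at 61645878 to 61665538 that is the host transcript of the cluster. The GENCODE model of Carmn, a lincRNA at 61649625 to 61665537, ends 366 bases short of Mir143 and holds neither hairpin. The related mmu-miR-145b was at the lowest value of the table in all 18 libraries.

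Levels are given as log2 ppm as deposited, where ppm is the number of reads of a microRNA per 1000000 usable reads. The deposited values were read as quantile normalised, so among the higher places a level follows the place of a microRNA within its library. A difference of 1 is therefore a 2-fold change on the normalised scale and not a ratio of reads as counted. The lowest value, 3.32, stands for 10 ppm and is given to every microRNA without a higher reading. Between 163 and 365 microRNAs were above it in a library. The carcinoma library of mouse 10 stood apart. After each tested microRNA was centred on its mean over the libraries, the mean correlation of that library with the other carcinomas was -0.12 and with the papillomas 0.41, and it was closest to the papilloma of the same mouse (r = 0.63, across 293 microRNAs, which are not independent replicates). It was the 1 library of 18 nearer to another sample type than to its own, and the differences that use cuSCC are therefore followed by their values without it.

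miR-143-3p was the most abundant member in all but 1 library, the CHR sample of mouse 10. Its levels in CHR were 13.17, 13.55, 13.65, 13.65, 14.03 and 13.55 in mice 2, 3, 7, 8, 9 and 10, a mean of 13.60 ± 0.28 (SD, n = 6). In PAP of the same mice, in the same order, they were 12.58, 11.72, 12.72, 11.82, 13.10 and 10.48, a mean of 12.07 ± 0.94 (n = 6). In cuSCC they were 14.61, 15.03, 14.44, 14.78, 13.33 and 12.12, a mean of 14.05 ± 1.11 (n = 6). All 6 papillomas lay below all 6 CHR samples, and 4 carcinomas lay above every CHR sample while those of mice 9 and 10 did not. By rank within a library, miR-143-3p stood between places 24 and 32 in CHR, 33 and 74 in PAP, and 17 and 47 in cuSCC.

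In PAP relative to CHR miR-143-3p fell by 1.53 on the log2 scale (SE 0.40, 95% confidence interval -2.39 to -0.67), a 2.89-fold difference, and the papilloma was lower in 6 of 6 mice (limma, Benjamini-Hochberg adjusted p = 0.0125). The median difference over all 293 tested microRNAs in this comparison was -0.23; 18.4% of them were called lower, and 9.56% were lower without overlap between the groups. Without mouse 3 the difference was -1.47 and no longer passed (limma adjusted p = 0.0513). From PAP to cuSCC miR-143-3p rose by 1.98 (SE 0.56, interval 0.76 to 3.20, limma adjusted p = 0.0402), a 3.94-fold difference seen in 6 of 6 mice, where 9.22% of the tested microRNAs were called higher and the median difference was 0.21. The call between PAP and cuSCC was lost when any 1 of mice 2, 3, 7, 8 and 9 was left out (limma adjusted p between 0.0621 and 0.176) but not without the carcinoma of mouse 10, where the difference was 2.37 (limma adjusted p = 0.00597).

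Between cuSCC and CHR the difference in miR-143-3p was 0.45 (SE 0.44, interval -0.50 to 1.40, limma adjusted p = 0.415), with 4 mice higher and 2 lower in the carcinoma. Without the carcinoma of mouse 10 it was 0.83 and passed the threshold (limma adjusted p = 0.0468), so that this call rests on 1 library. With all 3 samples of mouse 10 left out it was 0.82 and did not pass (limma adjusted p = 0.0641). In this comparison 20.1% of the tested microRNAs were called higher, 22.2% were called lower, and the median difference was 0.11.

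miR-145a-5p, the leading arm of the neighbouring hairpin, was lower in both lesions. Its levels in CHR were 12.06, 12.30, 12.24, 11.67, 12.002 and 13.77 in mice 2, 3, 7, 8, 9 and 10, a mean of 12.34 ± 0.73 (n = 6). In PAP they were 9.96, 8.63, 8.72, 10.41, 10.54 and 8.82, a mean of 9.51 ± 0.89 (n = 6). In cuSCC they were 10.74, 10.54, 11.25, 11.25, 11.32 and 8.27, a mean of 10.56 ± 1.17 (n = 6). Every papilloma and every carcinoma lay below every CHR sample, whereas papillomas and carcinomas overlapped. Within a library it held places 26 to 55 in CHR, and in the lesions places 73 to 110 (PAP) or 61 to 119 (cuSCC).

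In PAP miR-145a-5p fell by 2.83 (SE 0.45, interval -3.81 to -1.85), which is a 7.10-fold difference, in 6 of 6 mice (limma adjusted p = 0.000452). In cuSCC relative to CHR it fell by 1.78 (SE 0.51, interval -2.88 to -0.68, limma adjusted p = 0.0140), a 3.43-fold difference in 6 of 6 mice, where 10.6% of the tested microRNAs were lower without overlap. Leaving out the carcinoma of mouse 10 gave a difference of -1.32 (limma adjusted p = 0.00942), and leaving out all 3 samples of mouse 10, whose CHR sample was the highest and whose carcinoma was the lowest of its type, gave -1.04 (limma adjusted p = 0.00866). From PAP to cuSCC the difference was 1.05 (SE 0.57, interval -0.18 to 2.27, limma adjusted p = 0.252), higher in 5 of 6 mice. Without the carcinoma of mouse 10 that difference was 1.51 and passed the threshold (limma adjusted p = 0.0312).

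**Figure D1:**
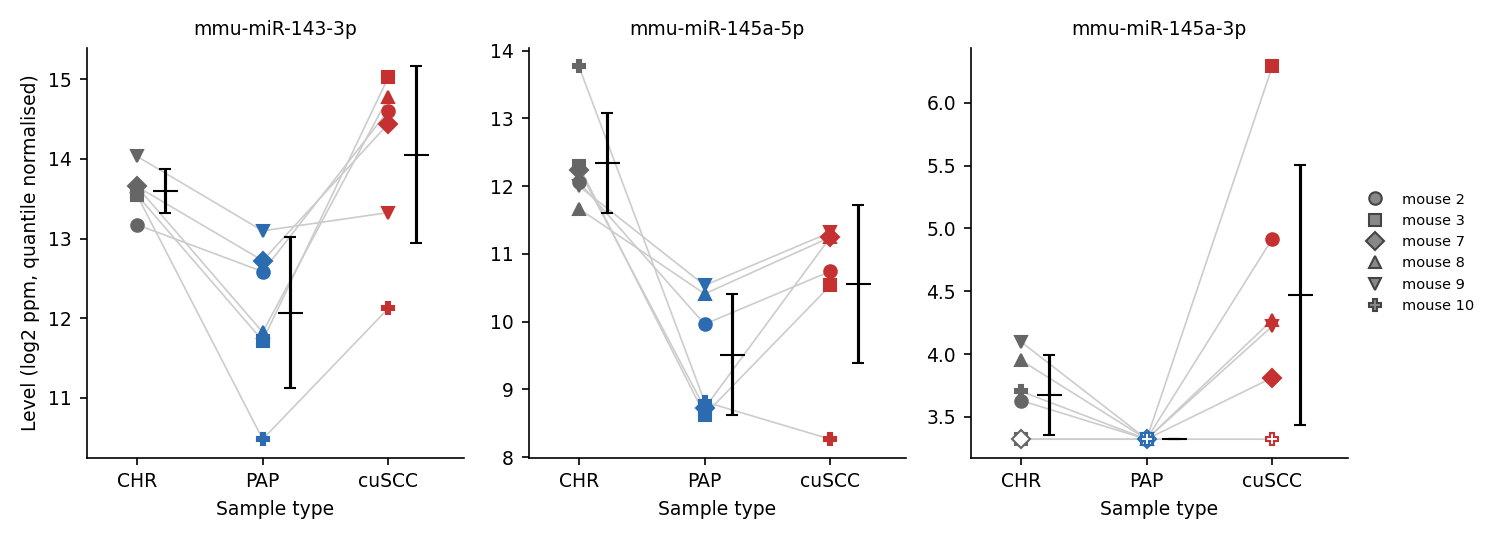
Level of the 3 tested members (y axis, log2 ppm as deposited, quantile normalised, a separate scale for each panel) in CHR, PAP and cuSCC (x axis); each symbol is 1 library, its shape marks the mouse, grey lines join the samples of a mouse, open symbols mark libraries at the lowest value, and the horizontal bar with whiskers is the mean ± SD of 6. All 6 papillomas lie below all CHR samples for miR-143-3p and miR-145a-5p, the carcinoma of mouse 10 is the lowest carcinoma in each panel, and miR-145a-3p is at the lowest value in every papilloma.

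The passenger arms were near or at the lowest value. miR-143-5p read 4.19 in the CHR sample of mouse 10 and stood at 3.32 in the other 17 libraries. miR-145a-3p was above the lowest value in 4 CHR samples (3.63, 3.95, 4.10 and 3.70 in mice 2, 8, 9 and 10) and in no papilloma. In cuSCC it was above it in 5 of 6 samples, at 4.92, 6.29, 3.81, 4.27 and 4.22 in mice 2, 3, 7, 8 and 9, and at 3.32 in mouse 10.

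None of the 3 differences in miR-145a-3p passed the threshold in limma. They were -0.35 (adjusted p = 0.227) between PAP and CHR, 0.80 (adjusted p = 0.141) between cuSCC and CHR, and 1.15 (unadjusted p = 0.0173, adjusted p = 0.104) between cuSCC and PAP. With the carcinoma of mouse 10 left out, the differences of cuSCC from CHR and from PAP were 1.03 and 1.38, and both passed (limma adjusted p = 0.0487 and 0.0324). With all 3 samples of mouse 10 left out they were 1.04 and 1.38, and only the latter passed (limma adjusted p = 0.0657 and 0.0427). The lowest reading above the table's lowest value ran from 3.71 to 6.83 in the papilloma libraries and from 3.32 to 4.50 in the carcinoma libraries, so that each of the 5 carcinoma readings of this arm lay below the lowest reading of at least 1 papilloma library. When undetected microRNAs were set to the lowest reading of their own library, the difference between cuSCC and PAP changed sign to -0.81 and that between PAP and CHR to 1.21, neither past the threshold (limma adjusted p = 0.273 and 0.0760).

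**Figure D2:**
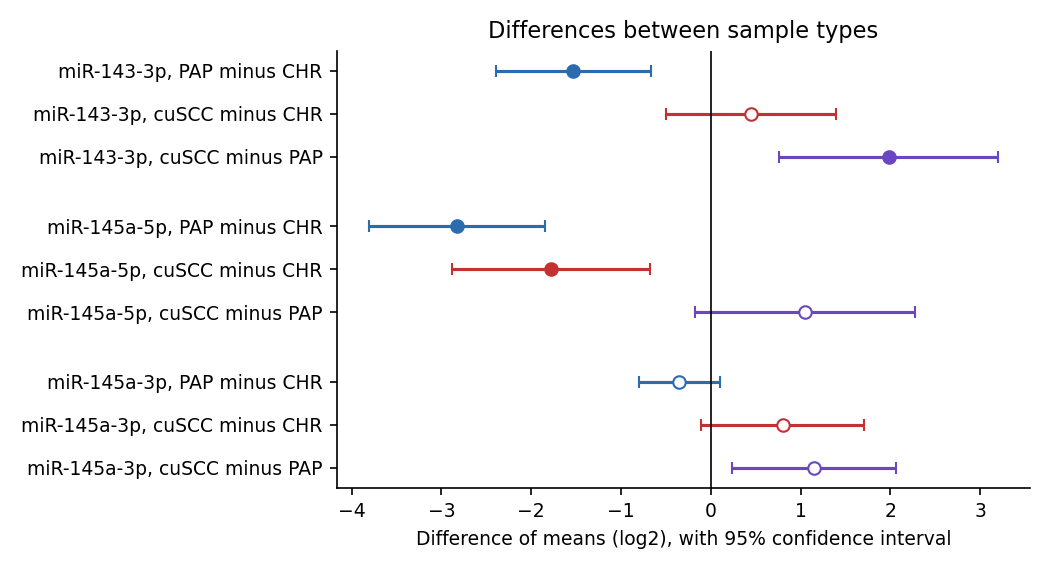
Difference between the means of 2 sample types in log2 units (x axis) for the 3 tested members in the 3 comparisons (y axis); points are limma estimates over 6 samples a type, bars are 95% confidence intervals before adjustment, and filled points passed an adjusted p of 0.05. miR-145a-5p lies below 0 in both comparisons with CHR, whereas miR-143-3p lies below 0 in papilloma (-1.53) and its interval spans 0 in carcinoma (-0.50 to 1.40).

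Although they come from 1 primary transcript, the leading arms did not keep a fixed distance. Within a library, miR-143-3p minus miR-145a-5p was 1.11, 1.25, 1.41, 1.99, 2.03 and -0.22 in CHR of mice 2, 3, 7, 8, 9 and 10, a mean of 1.26 ± 0.82 (n = 6). It was 2.62, 3.09, 3.999, 1.41, 2.56 and 1.66 in PAP, a mean of 2.56 ± 0.95, and 3.86, 4.49, 3.20, 3.53, 2.01 and 3.86 in cuSCC, a mean of 3.49 ± 0.84. Such a difference compares the same pair of strands across samples; the distance itself also carries how well each strand is captured in a library, so its change between sample types is what was tested. The distance was 2.23 larger in cuSCC than in CHR, in 5 of 6 mice, and 5 of 6 carcinomas lay above all CHR samples (2-sided exact permutation test of 6 against 6 libraries, p = 0.00433, adjusted p = 0.0130 over 9 such tests). Without the carcinoma of mouse 10 the change was 2.16 (exact permutation test, adjusted p = 0.00974).

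Between PAP and CHR the distance differed by 1.30 (exact permutation test, adjusted p = 0.0422), larger in 5 of 6 mice, but without the CHR sample of mouse 10 the change was 1.0 (adjusted p = 0.0844 by the same exact test), and the call was also lost when mouse 2, 3, 7 or 9 was left out (changes of 1.04 to 1.45). Between cuSCC and PAP it differed by 0.93 (exact permutation test, adjusted p = 0.136), or by 0.86 without the carcinoma of mouse 10 (adjusted p = 0.188 by the same exact test). With the samples paired by mouse in an exact sign-flip test, the adjusted p was 0.113 for cuSCC against CHR and 0.141 for PAP against CHR, and with 6 mice that test cannot go below 0.0313 before adjustment.

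**Figure D3:**
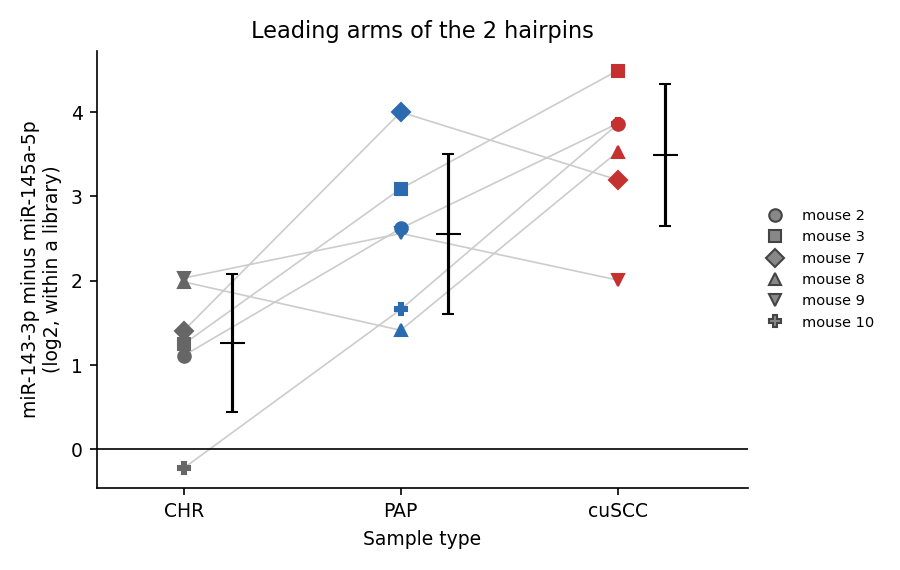
Level of miR-143-3p minus level of miR-145a-5p in the same library (y axis, log2) in CHR, PAP and cuSCC (x axis); symbols are libraries, shapes mark the mouse, grey lines join samples of a mouse, and bars are the mean ± SD of 6. The mean distance is 1.26 in CHR, 2.56 in PAP and 3.49 in cuSCC, and the carcinoma of mouse 9, at 2.01, is the 1 carcinoma inside the CHR range.

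For the 2 arms of the miR-145a hairpin the distance within a library is bounded by the floor of the table. miR-145a-5p exceeded miR-145a-3p by 8.67 ± 0.85 in CHR, 6.19 ± 0.89 in PAP and 6.09 ± 1.30 in cuSCC (n = 6 each). miR-145a-3p was at the lowest value in 6 of 6 papillomas and in 2 of 6 CHR samples, so the distance in PAP is a lower bound, and its change of -2.48 from CHR to PAP restates the fall of miR-145a-5p and does not show that the arms changed differently. From CHR to cuSCC, where 5 of 6 carcinomas had a reading of miR-145a-3p, the distance changed by -2.58 (exact permutation test, adjusted p = 0.00974, in 6 of 6 mice), or by -2.35 without the carcinoma of mouse 10 (exact permutation test, adjusted p = 0.00649). With a lowest value of 100 ppm the passenger arm is constant and this change is that of miR-145a-5p alone (-1.78), and in the exact sign-flip test paired by mouse its adjusted p was 0.0703. For the miR-143 hairpin no such distance was informative, since miR-143-5p was at the lowest value in every papilloma and every carcinoma and in 5 of 6 CHR samples, which leaves miR-143-3p minus a constant.

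Over the 6 mice within a sample type, the leading arms showed no relation that passed a permutation test. Pearson's r and Spearman's rho between miR-143-3p and miR-145a-5p were -0.14 and -0.50 in CHR, 0.47 and 0.49 in PAP, and 0.73 and -0.03 in cuSCC (exact permutation tests, adjusted p between 0.542 and 0.983 over 6 relations). The r of 0.73 in cuSCC became -0.63 without mice 9 and 10, whose carcinomas had the lowest miR-143-3p, and the r of 0.47 in PAP became -0.10 without the same mice. In CHR r went from -0.14 to -0.69 without mice 2 and 9.

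The pattern of each leading arm over the 18 libraries was set beside that of every other tested microRNA by Pearson's r, given as a description, since libraries share a sample type and a normalisation. The 5 nearest to miR-143-3p were miR-199a-3p and miR-199b-3p (r = 0.95 each), miR-195a-5p (0.94), miR-199a-5p (0.92) and miR-10b-5p (0.91). With the mean of each sample type removed, so that only variation within a type remained, r was 0.93, 0.93, 0.90, 0.88 and 0.79. miR-199a and miR-199b are microRNAs of mesenchymal cells, miR-195a belongs to the miR-15/16 family, and miR-10b is encoded within the Hoxd cluster. The 5 nearest to miR-145a-5p were other microRNAs: miR-1247-5p (0.89), encoded beside Dio3 in an imprinted domain, miR-133a-3p (0.86), a microRNA of striated muscle, miR-222-3p (0.85), miR-204-5p (0.83) and miR-218-1-3p (0.82), the last encoded in an intron of Slit2. Within sample types their r was 0.76, 0.69, 0.60, 0.46 and 0.34, so that the likeness of miR-204-5p and miR-218-1-3p lay mostly in the differences between types. Among the 292 other tested microRNAs, miR-145a-5p held place 43 in the order of miR-143-3p, and miR-143-3p held place 51 in that of miR-145a-5p (r = 0.59 over 18 libraries and 0.54 within types). miR-145a-3p, from the same hairpin as miR-145a-5p, held place 134 in its order (r = 0.16). Since miR-145a-3p was above the lowest value in only 4 of 6 CHR samples, 5 of 6 carcinomas and no papilloma, the floor limits what this r can show.

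The mature strands of these neighbours are shown, 5′ to 3′ with the seed (bases 2 to 8) in capitals. The strands of miR-143-3p and miR-145a-5p are not shown, so the neighbours are compared in sequence only with each other. Of the 10, 9 are shown, with strands from RefSeq (GRCm38.p6). The strand of miR-133a-3p was left out and it is named only, which says nothing of its presence in RefSeq. The strands nearest to miR-143-3p were
miR-199a-3p: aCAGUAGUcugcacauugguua
miR-199b-3p: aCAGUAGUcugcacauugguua
miR-195a-5p: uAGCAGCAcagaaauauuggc
miR-199a-5p: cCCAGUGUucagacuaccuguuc
miR-10b-5p: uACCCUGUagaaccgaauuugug
and those nearest to miR-145a-5p were
miR-1247-5p: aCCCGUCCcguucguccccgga
miR-222-3p: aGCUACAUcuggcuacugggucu
miR-204-5p: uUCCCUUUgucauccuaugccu
miR-218-1-3p: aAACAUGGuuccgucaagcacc
Among the 9 shown, only miR-199a-3p and miR-199b-3p shared a seed. Those 2 strands are identical over all 22 bases and had the same value in every library, so they count as 1 measurement whose reads cannot be assigned to miR-199a or miR-199b.

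The neighbours of miR-143-3p had their lowest mean in PAP and a mean in cuSCC near or above that in CHR. In PAP miR-10b-5p fell by 1.70 and rose from PAP to cuSCC by 2.40 (limma adjusted p = 0.00961 and 0.0134). In PAP miR-199a-3p fell by 1.48 (limma adjusted p = 0.0292) and rose from PAP to cuSCC by 2.62 (limma adjusted p = 0.0319), and in PAP miR-195a-5p fell by 2.23 (limma adjusted p = 0.0101) and differed by 2.45 between the lesions (limma adjusted p = 0.0589). For miR-199a-5p the differences of -2.22 in PAP and 2.77 between the lesions did not pass (limma adjusted p = 0.0778 and 0.117). Without the carcinoma of mouse 10 the differences between the lesions were 2.74 for miR-10b-5p, 3.08 for miR-199a-3p, 3.03 for miR-195a-5p and 3.44 for miR-199a-5p, all past the threshold in limma, and miR-199a-3p and miR-199a-5p were then also called higher in cuSCC than in CHR (1.60 and 1.22). The neighbours of miR-145a-5p were lower in both lesions, with differences in PAP from -1.67 for miR-222-3p to -10.04 for miR-133a-3p, each past the threshold in limma. For miR-218-1-3p every papilloma was at the lowest value, and its CHR mean of 6.27 lay below the lowest reading of at least 1 papilloma library (6.83). In cuSCC 4 of the 5 fell relative to CHR, with differences of -1.45 for miR-222-3p, -1.69 for miR-218-1-3p, -3.22 for miR-133a-3p and -4.18 for miR-204-5p, whereas miR-1247-5p differed by -1.29 (limma adjusted p = 0.0588). On leaving out the carcinoma of mouse 10 these differences were -1.37, -1.43, -1.77, -3.79 and -0.80 in the same order, with the same 4 past the threshold. Since the neighbours were chosen by likeness over these same libraries, their differences are a description and no separate support.

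**Figure D4:**
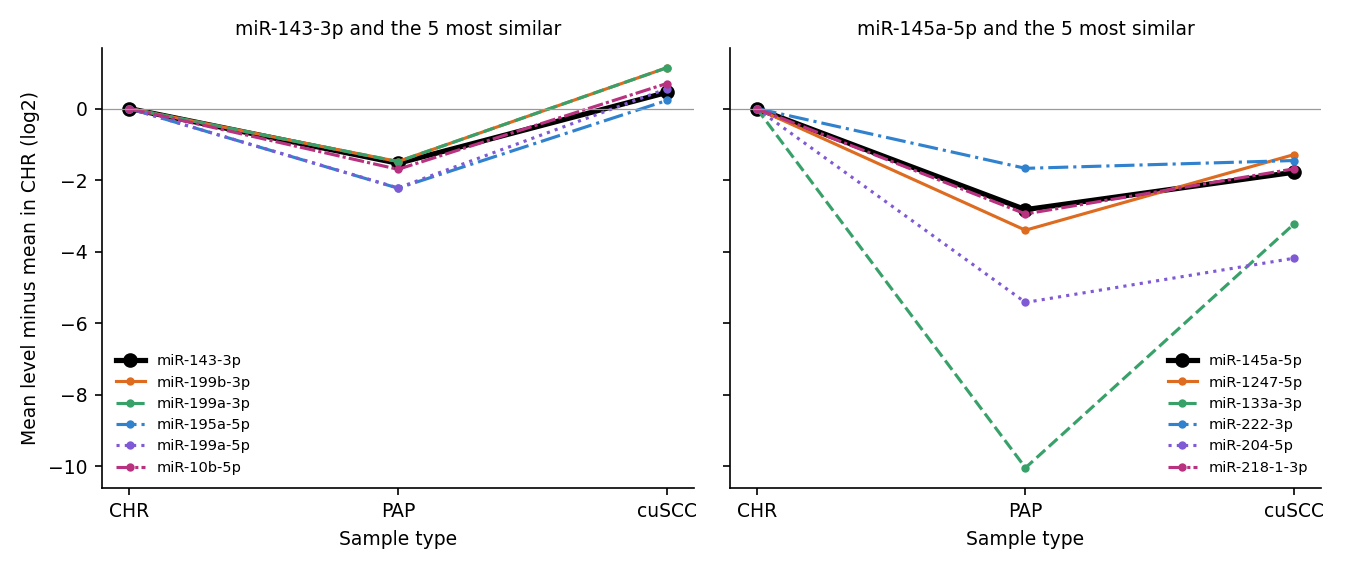
Mean level in each sample type minus the mean in CHR (y axis, log2) for miR-143-3p (left) and miR-145a-5p (right), in black, and the 5 tested microRNAs with the highest Pearson's r to each over 18 libraries, in colour; points are means of 6 libraries and no error is drawn. miR-143-3p and its neighbours have their lowest mean in PAP and return to or above the CHR mean in cuSCC, miR-145a-5p and its neighbours stay below it in both lesions, and the 2 curves of miR-199a-3p and miR-199b-3p coincide.

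Since the samples are whole tissue, microRNAs that mark other cell types were read in the same libraries. None of the 6 lists read was chosen to mark smooth muscle, so the cell type of the cluster's source was not checked independently. The counts below are to be read beside the shares called over all 293 tested microRNAs, which were 18.4% lower and 14.0% higher in PAP against CHR, 22.2% lower and 20.1% higher in cuSCC against CHR, and 9.22% higher and 2.39% lower in cuSCC against PAP. These shares depended on the floor. With undetected values at a library's own lowest reading, 63 were higher and 37 lower in PAP against CHR (41 and 54 as deposited). In cuSCC against PAP 18 were then higher and 62 lower (27 and 7 as deposited), and exact permutation on the deposited values called 0. In cuSCC against CHR the counts were 51 and 67 (59 and 65 as deposited). The list counts were not recomputed in these settings.

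Of 8 microRNAs listed for fibroblasts (the miR-199 and miR-214 strands, miR-10b and miR-152) 7 were tested, which is 6 measurements with miR-199a-3p and miR-199b-3p counted once. In PAP 3 of 6 fell, in cuSCC against CHR none passed the test, and from PAP to cuSCC 3 of 6 rose. Among these rises was miR-199b-5p, which was at the lowest value in all 6 papillomas. Its cuSCC mean of 4.97 lay below the lowest reading of at least 1 papilloma library (6.83), which could not show such a level. The median differences of the list were -1.69, 0.63 and 2.29, beside -0.23, 0.11 and 0.21 over all tested microRNAs. The list holds 3 of the 4 distinct neighbours of miR-143-3p, so it does not stand apart from them. Its mean level ran from 9.44 to 10.74 over the CHR samples, from 5.89 to 9.78 over the papillomas and from 7.92 to 11.17 over the carcinomas. When the carcinoma of mouse 10 was left out, 3 of the 6 were called higher in cuSCC than in CHR and 5 higher than in PAP.

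In the striated muscle list (miR-1, miR-133, miR-206 and miR-499 strands, 4 of 7 tested) 3 of 4 were called lower in PAP, miR-133a-3p, miR-133b-3p and miR-206-3p. The latter 2 were at the lowest value in all 6 papillomas. Their CHR means, 6.26 and 6.54, lay below the lowest reading of at least 1 papilloma library (6.83), and such a library cannot show a fall. In cuSCC relative to CHR 1 of 4, miR-133a-3p, fell, and 3 rose from PAP to cuSCC. The cuSCC means of miR-133b-3p and miR-206-3p, 5.84 and 5.94, also lay below that papilloma reading of 6.83, so the floor limits these 2 rises as well. The mean level over this list separated CHR (7.63 to 8.40) from PAP (3.32 to 5.60) without overlap, and ran from 3.78 to 8.07 over the carcinomas. Since miR-133a-5p was also at the lowest value in all 6 papillomas, the PAP range was set in large part by the floor. The 2 strands of endothelial miR-126 did not pass the test between PAP and CHR (differences -0.19 for miR-126-3p and -1.10 for miR-126-5p) and rose in cuSCC, by 1.40 and 1.74 relative to CHR and by 1.59 and 2.84 relative to PAP. Their mean level was 6.63 to 8.27 in CHR, 5.43 to 7.79 in papillomas and 8.10 to 10.16 in carcinomas. In the same libraries miR-145a-5p was lower in cuSCC than in CHR (difference -1.78), and its relation to miR-126 was not tested.

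Of the epithelial microRNAs (the miR-200 family, miR-203 and miR-205, 7 of 7 tested) 4 were higher in PAP and 3 higher in cuSCC than in CHR. From PAP to cuSCC 1, miR-200c-3p, was lower. Not called in PAP were miR-200a-3p (1.60), miR-203-3p (-0.16) and miR-205-5p (0.35). Not called in cuSCC against CHR were miR-200b-3p (0.88), miR-200c-3p (-0.21), miR-203-3p (0.50) and miR-205-5p (0.21). The mean level of this list over CHR samples ran from 9.48 to 11.05, over papillomas from 10.68 to 11.93 and over carcinomas from 10.43 to 11.97. Of the leukocyte list 4 of 7 were tested, 2 of which fell in PAP; in cuSCC relative to CHR 2 fell and 1 rose, and 1 rose from PAP to cuSCC. Of the erythroid list 2 of 4 were tested, with 1 higher in PAP, 1 higher and 1 lower in cuSCC relative to CHR, and 1 lower in cuSCC than in PAP.

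If the carcinoma of mouse 10 was left out, 2 in place of 3 epithelial microRNAs were called higher in cuSCC than in CHR, and the counts of the striated muscle, endothelial, leukocyte and erythroid lists were the same. With mouse as a block, the epithelial counts were 3 in place of 4 in PAP against CHR, 2 in place of 3 in cuSCC against CHR and 0 in place of 1 between the lesions, and 1 in place of 2 miR-126 strands was called higher in cuSCC than in PAP. Without the CHR sample of mouse 10 no striated muscle microRNA was called in cuSCC against CHR. The part of these shifts in the differences of miR-143-3p and miR-145a-5p was not tested.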

How the data were processed

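Small RNA libraries of 18 samples, 3 from each of 6 mice, were used. According to the study's methods, the authors removed adapters, short reads and homopolymer ends, assigned the remaining reads to miRBase entries by BLAST and scaled each microRNA to ppm of the usable reads; the deposited values are log2 ppm, with a lowest value of 3.32 (10 ppm). The sorted values of the libraries nearly coincide (spread of at most 0.382 over the first 150 places), so they were read as quantile normalised. This brings the libraries close to 1 distribution over those places. Further down they differed, with 163 to 365 microRNAs above the lowest value in a library. The read depth of single libraries is not given in the sources used here, so no counting interval can be stated.

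Testing required a value over the lowest one in 6 or more of 18 libraries, which left 293 of 1251 microRNAs. Each pair of sample types was fitted with limma (version 3.58.1, R 4.3.3) on the deposited values, with Benjamini-Hochberg adjustment over all 293 and a threshold of 0.05. Differences between members within a library were compared by exact permutation over libraries (Python 3.11.15, NumPy 2.4.6). The scripts were tested on simulated data.

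The number in each label is the mouse, so samples pair by animal; deviations of a mouse's samples correlated at a mean r of 0.03, -0.07 and 0.06 for the 3 pairs of types, and a fit with mouse as a block was an alternative. Other alternatives were other filters and floors, median centring, other tests, and leaving out each mouse or a library that stood apart. Named microRNAs were the 4 members, the 5 tested microRNAs most correlated with each leading arm, miR-145b, and members of 6 lists of cell type markers. The members and lists were chosen with earlier results of these data known. P-values measure the spread between mice.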

Additional observations from a re-analysis of the deposited data

Results flagged for a closer look

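In each group of 6 libraries the highest and the lowest value were set against the others by Dixon's ratio of the gap to the whole range at its 95% critical value. Chance would flag about 1 in 20 of the 18 groups checked, which share libraries and are not independent. The miR-145a-5p level of the CHR sample of mouse 10, 13.77, stood above the next CHR sample at 12.30 (ratio 0.701). The miR-145a-5p level of the carcinoma of the same mouse, 8.27, stood below the next carcinoma at 10.54 (ratio 0.744). miR-143-5p in the CHR sample of mouse 10, at 4.19, was the only value of that arm above 3.32; with 5 samples at the floor its ratio is 1 whatever the reading, so it is given as a value only. Both miR-145a-5p values belong to mouse 10, in which the difference of miR-145a-5p between cuSCC and CHR was the largest of the 6.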

How the results depend on the processing

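Of 246 recomputed values, 204 kept their direction and their side of the threshold, 27 lost the call, 8 gained one and 7 changed sign; the causes were not tested. The block by mouse changed no limma call of a member. In the within-library differences that block left -1.39 and 1.98 for miR-143-3p minus miR-143-5p (PAP minus CHR, cuSCC minus PAP), -2.48 and -2.58 for miR-145a-5p minus miR-145a-3p (PAP and cuSCC minus CHR), and 1.30 and 2.23 for miR-143-3p minus miR-145a-5p (the same comparisons) without the call, at adjusted p from 0.0703 to 0.141 by exact sign flips. miR-143-3p, cuSCC minus PAP (1.98), lost the call without a filter on low values (limma adjusted p = 0.0728), with a lowest value of 100 ppm (0.0796), by exact permutation (0.0945) and without moderation (0.0630).

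Without the carcinoma of mouse 10, calls were gained for cuSCC minus CHR in miR-143-3p (0.83), miR-145a-3p (1.03) and miR-143-3p minus miR-143-5p (0.98). They were also gained for cuSCC minus PAP in miR-145a-5p (1.51) and miR-145a-3p (1.38). The last was also called in 1 fit over all 3 sample types (1.15, limma adjusted p = 0.0416). With all 3 samples of mouse 10 left out, both cuSCC minus PAP calls held. The cuSCC minus CHR differences were then 0.82, 1.04 and 0.82, and none passed (limma adjusted p = 0.0641 and 0.0657, exact permutation adjusted p = 0.0510). Setting undetected values to a library's own lowest reading reversed miR-145a-3p in PAP minus CHR (1.21) and cuSCC minus PAP (-0.81), lowered it in cuSCC minus CHR from 0.80 to 0.40 (limma adjusted p = 0.504), and moved miR-145a-5p minus miR-145a-3p in PAP minus CHR to -4.04 and miR-143-3p minus miR-143-5p to -2.77, 0.95 and 3.72 in PAP minus CHR, cuSCC minus CHR and cuSCC minus PAP. The change in miR-145a-5p minus miR-145a-3p between the lesions reversed there (1.86), with a lowest value of 100 ppm (1.05) and without the carcinoma of mouse 10 (0.12). Without the CHR sample of mouse 10, an alternative chosen after seeing the data, miR-143-3p minus miR-145a-5p in PAP minus CHR was 1.0 and lost the call.

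Leaving out 1 mouse at a time, or the carcinoma of mouse 10 alone, gave -1.72 to -1.22 for miR-143-3p in PAP minus CHR (call lost without mouse 3, limma adjusted p = 0.0513), 0.24 to 0.83 in cuSCC minus CHR and 1.71 to 2.37 in cuSCC minus PAP, 0.75 to 1.51 for miR-145a-5p in cuSCC minus PAP (gained without mouse 10, limma adjusted p = 0.0454) and 0.79 to 1.38 for miR-145a-3p there (gained without mouse 10) and 0.37 to 1.04 in cuSCC minus CHR. It gave -1.55 to -1.22, 0.42 to 0.98 and 1.71 to 2.37 for miR-143-3p minus miR-143-5p in PAP minus CHR (call lost without mouse 2 or 3), cuSCC minus CHR and cuSCC minus PAP (lost without mouse 2, 3, 7 or 8), values that follow miR-143-3p since miR-143-5p was nearly constant, -0.53 to 0.12 for miR-145a-5p minus miR-145a-3p between the lesions, and 1.04 to 1.67 for miR-143-3p minus miR-145a-5p in PAP minus CHR (call lost without mouse 2, 3, 7 or 9). The planned change of pseudocount was not run, since the values were already log2, and miR-145a-3p gave no value at a lowest value of 100 ppm. Read depth is unknown, and the floor of the table limits what can be said of both passenger arms.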
